A study of Mus musculus with 26 samples.

Results

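Glutamate, GABA and glycine receptor genes were followed as 39 of the 26180 mouse genes with a curated RefSeq start site. A deposited region was assigned to one of them where it overlapped 1.5 kb either side of any of its start sites on mm10, and the region with the largest overlap was kept in each table. The regions came from chromatin immunoprecipitation (ChIP) and sequential ChIP (reChIP) of mouse embryonic stem cells, in which fragments pulled down with one histone antibody were pulled down again with a second. In-line totals, for which 10% of the first pull-down was kept back, gave total H3K4me3 and total H3K27me3, and the reChIPs were run in both orders, H3K4me3 then H3K27me3 (K4-K27) and H3K27me3 then H3K4me3 (K27-K4). E14 cells, a wild-type line, gave 2 replicates taken from different passages on separate days, labelled 1 and 2 here, with 1 IgG–IgG library from replicate 1. Wild-type (WT) clones 57 and 58 and Dppa2/4 double knockout (DKO) clones 43 and 53, which lack both Dppa2 and Dppa4, gave the same 4 ChIPs each, with 1 IgG–IgG library from WT clone 57 that served both genotypes. All cells were grown in serum and LIF on gelatin without feeders and none was treated. Each clone is a line from a single cell, so the spread between 2 clones covers clonal as well as technical variation. E14 cells and the clones share no culture and no IgG–IgG library, so cell line and batch cannot be told apart between them. E14 replicate 2 was sequenced deeper than replicate 1, and the sample titles name no sequencing run.

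H3K4me3 marks the start sites of active or poised genes, H3K27me3 is laid down by Polycomb repressive complex PRC2 at silent developmental genes, and a promoter with both on the same chromatin fragment is called bivalent. The receptors studied here carry and tune synaptic transmission between neurons and are not part of the known programme of embryonic stem cells. AMPA, kainate and NMDA receptors are glutamate-gated cation channels, delta receptors are related channel-like proteins, and metabotropic glutamate receptors (groups I to III) and GABA-B receptors signal through G proteins. GABA-A, GABA-A rho and glycine receptors are chloride channels that inhibit neurons. DPPA2 and DPPA4 are DNA-binding proteins of early embryos and embryonic stem cells, and the DKO comparison asks whether bivalent promoters keep their marks without them.

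RefSeq promoters (GRCm38.p6, the build also called mm10), running from 250 bases before to 50 after a start site, were at hand for 29 of the 39 genes. The 6 below begin with the highest and the lowest pair among those 29 in E14 reChIP enrichment over IgG–IgG. At Gabra2 and Glrb that control library held 13 and 12 reads, and Grm3, also of the 29, stood above both before its subtraction. The last pair had no region shared by the E14 reChIPs within 1.5 kb of a start site. The shared region of Gabrr2, in the lowest pair, lies 1389 bp from its start site and outside the printed promoter. Each is written 5′ to 3′ on the strand of the gene, and capitals mark CG, the CpG dinucleotide, which reads the same on both strands. At least 1 CG was present in 94.6% of the 32851 promoters of that collection, with a median of 7 in 300 bases.
Gabra2: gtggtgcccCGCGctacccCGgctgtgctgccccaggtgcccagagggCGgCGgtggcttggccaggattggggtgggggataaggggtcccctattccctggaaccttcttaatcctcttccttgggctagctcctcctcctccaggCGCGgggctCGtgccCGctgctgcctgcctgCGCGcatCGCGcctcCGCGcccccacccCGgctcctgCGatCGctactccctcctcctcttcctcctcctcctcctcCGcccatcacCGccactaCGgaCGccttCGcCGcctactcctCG
Glrb: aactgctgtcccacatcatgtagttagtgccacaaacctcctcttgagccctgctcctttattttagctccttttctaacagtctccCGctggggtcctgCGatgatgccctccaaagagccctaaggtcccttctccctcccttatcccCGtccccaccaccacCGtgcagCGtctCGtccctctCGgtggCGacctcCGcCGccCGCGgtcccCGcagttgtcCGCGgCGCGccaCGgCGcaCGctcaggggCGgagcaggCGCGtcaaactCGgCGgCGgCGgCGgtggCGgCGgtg
Gabrr2: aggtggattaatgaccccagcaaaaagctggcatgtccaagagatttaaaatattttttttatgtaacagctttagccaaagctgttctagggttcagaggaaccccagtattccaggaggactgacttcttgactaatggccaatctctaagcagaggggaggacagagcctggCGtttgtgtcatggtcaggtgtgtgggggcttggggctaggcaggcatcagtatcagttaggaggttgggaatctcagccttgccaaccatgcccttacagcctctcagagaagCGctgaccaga
Gabbr1: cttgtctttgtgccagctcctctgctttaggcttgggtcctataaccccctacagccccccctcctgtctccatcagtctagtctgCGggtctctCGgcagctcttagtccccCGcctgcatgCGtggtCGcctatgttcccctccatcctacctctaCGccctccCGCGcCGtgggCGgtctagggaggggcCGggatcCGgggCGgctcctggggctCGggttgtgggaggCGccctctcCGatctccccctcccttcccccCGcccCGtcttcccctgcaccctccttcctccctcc
Gabra6: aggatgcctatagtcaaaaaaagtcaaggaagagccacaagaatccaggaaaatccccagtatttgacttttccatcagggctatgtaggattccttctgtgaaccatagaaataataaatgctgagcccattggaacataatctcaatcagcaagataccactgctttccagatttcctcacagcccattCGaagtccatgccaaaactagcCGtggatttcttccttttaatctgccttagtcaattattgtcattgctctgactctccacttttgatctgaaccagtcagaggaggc
Gabrr1: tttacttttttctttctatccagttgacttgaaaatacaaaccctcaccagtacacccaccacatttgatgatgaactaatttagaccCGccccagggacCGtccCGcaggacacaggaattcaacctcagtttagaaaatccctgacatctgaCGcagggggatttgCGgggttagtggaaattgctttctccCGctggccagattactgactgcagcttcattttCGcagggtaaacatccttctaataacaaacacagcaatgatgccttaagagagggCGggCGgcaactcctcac
Gabra2, at chr5:71095800-71096099 (minus strand), encodes the alpha-2 subunit of the GABA-A receptor and held 25 CG, a number reached by 18.4% of all promoters. Glrb, at chr3:80913611-80913910 (minus strand), encodes the beta subunit that anchors glycine receptors at synapses and held 30, reached by 11.7%. Gabrr2, at chr4:33062862-33063161 (plus strand), encodes a rho subunit and held 2, reached by 85.9%. Gabbr1, at chr17:37045716-37046015 (plus strand), encodes the GABA-B subunit that binds GABA and held 18, reached by 29.7%. Gabra6, at chr11:42321023-42321322 (minus strand), encodes the alpha-6 subunit of cerebellar granule cells and held 2, and Gabrr1, at chr4:33132306-33132605 (plus strand), held 9, reached by 45.8%.

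Values were log2 reads scaled to library size and per kb of region, and the reads behind them ranged from 6741244 to 47903462 over the 26 libraries. Enrichment is a value minus that of the IgG–IgG library of E14 cells or of WT clone 57, so both E14 replicates share one control and all 4 clones share another. WT clone 57 stood above WT clone 58 in total H3K4me3 over all regions, with median enrichments of 2.14 and 1.11 (log2). Promoters of 7 of 7 embryonic stem cell markers were listed in the E14 total H3K4me3 table and 1 of 7 in the total H3K27me3 table. Of markers of other cells, 3 of 4 for feeder fibroblasts and 4 of 4 for neural cells were also in the H3K4me3 table. So were 2 of 3 for endoderm and 2 of 3 for trophoblast. Of all genes 53.2% were listed for total H3K4me3 and 12.1% for total H3K27me3. Such a listing gives no RNA level. In a bulk library, a lower value cannot tell fewer cells carrying a mark from less of the mark per cell.

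Receptor genes were listed more often in the reChIP tables than in those of the totals. In E14 cells, 35 of the 39 had a region in the K4-K27 table and 37 in the K27-K4 table, against 22 in each of the total H3K4me3 and total H3K27me3 tables. Over all 26180 genes the shares were 58.7%, 66.2%, 53.2% and 12.1%, so the 56.4% of receptor genes with a total H3K27me3 region stood beside a much lower share of all genes, and the 56.4% with total H3K4me3 beside a like share. In WT cells 34 of the 39 were listed for K4-K27, 35 for K27-K4, 32 for total H3K4me3 and 26 for total H3K27me3, beside 59.4%, 33.7%, 60.2% and 15.8% of all genes. In DKO cells 34, 33, 25 and 24 were, beside 57.8%, 32.1%, 56.1% and 17.6% of all genes. Total H3K4me3 had the widest gap between the genotypes, with 32 in WT against 25 in DKO, while all genes went from 60.2% to 56.1%. The 7 genes missing from the DKO table were Grik1, Grin2c, Grin3a, Grm5, Grm3, Grm6 and Gabbr2. By class, the 4 group III genes were all in both E14 total tables, while of the 7 NMDA genes 3 were in each, and neither Grm5 nor either group II gene was in that of total H3K4me3.

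A set of 11 genes was in all 12 tables: Gria2, Grik2, Grin2a, Grid1, Grm4, Gabra2, Gabra4, Gabrb1, Gabrb2, Glra1 and Glrb. They include the subunit that limits calcium flow through AMPA receptors (Gria2), an NMDA subunit (Grin2a) and both a ligand-binding and the anchoring subunit of glycine receptors (Glra1, Glrb). Gabra4 and Gabrb1 are neighbours that start on opposite strands within 1 region, chr5:71655601-71660700, and are not independent of each other. Gabra6 was the one gene in no table. Gabrg1, a gamma subunit of GABA-A receptors, was listed in the E14 K27-K4 table alone, and Gabrr1 in the E14 total H3K27me3 and WT K27-K4 tables. Gria1, the other major AMPA subunit, was listed in 3 of the 4 E14 tables and in no table of the clones. Gabrr2 was listed in 3 tables, and its region in the shared E14 set reached only 112 bp into the window, 1389 bp from the start site.

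Regions identical in both E14 reChIP tables numbered 21857 and held values for all 26 libraries, and 35 receptor genes had one; Gabra6, Gabrg1, Gabrr1 and Glra3 did not. In E14 cells the 35 ranked high in both reChIPs and in total H3K27me3 and low in total H3K4me3. Their median percentile among the shared regions was 88.3 in K4-K27, 87.2 in K27-K4, 79.8 in total H3K27me3 and 34.1 in total H3K4me3 (means of 2 replicates). In median log2 enrichment they stood 1.14 above all shared regions in K4-K27, 0.96 above in K27-K4, 0.68 above in total H3K27me3 and, for total H3K4me3, at a difference of −0.36. These are descriptions of the set, since genes are not replicates of a condition.

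**Figure D1:**
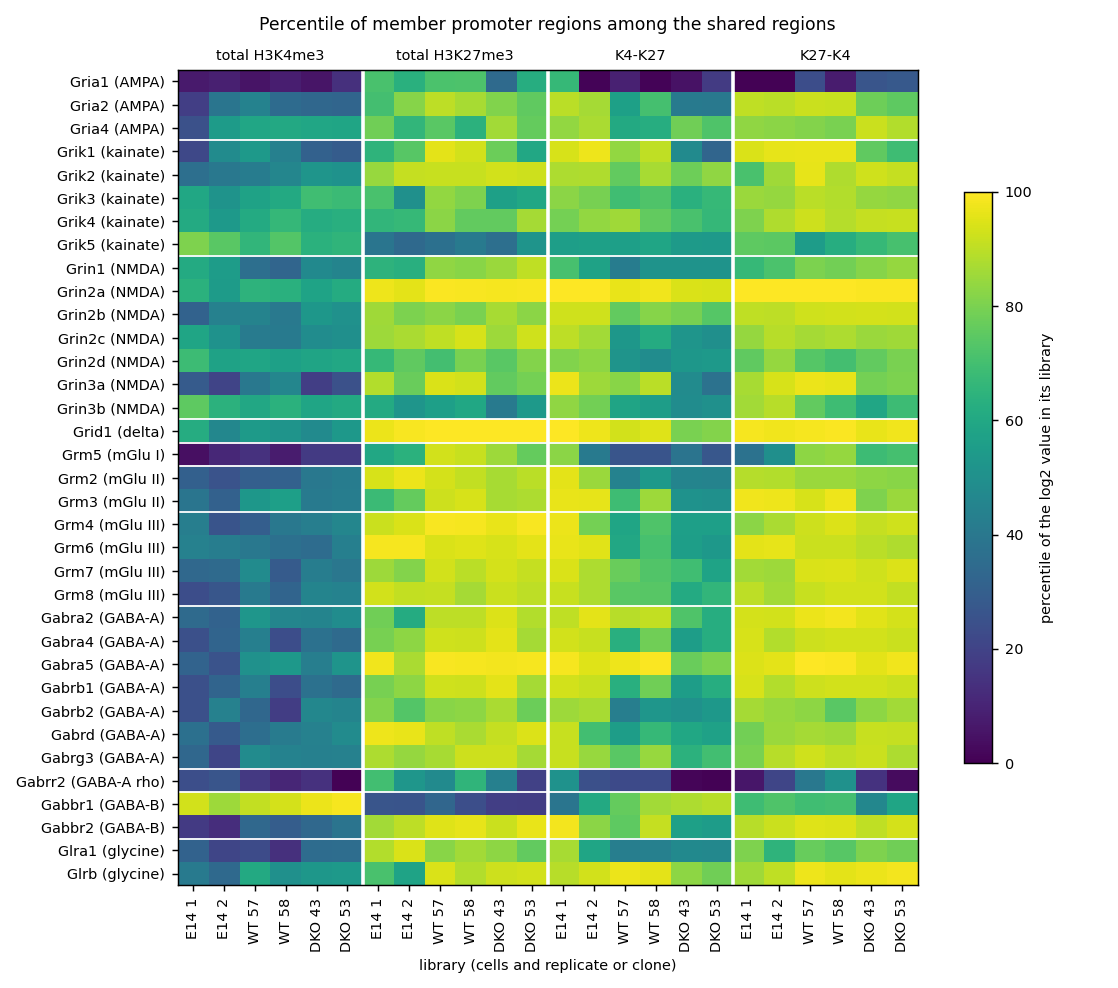
Percentile of each receptor gene region (rows, by receptor class; mGlu stands for metabotropic glutamate) among the 21857 shared regions in each of 24 libraries (columns, by ChIP, cells and replicate or clone); colour runs from 0 (dark) to 100 (yellow). Most rows are bright in total H3K27me3 and K27-K4 and dark in total H3K4me3, while Gabbr1 and Grik5 show the opposite balance and Grin2a and Grid1 are bright in every reChIP.

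The highest reChIP enrichment over IgG–IgG in E14 cells was found at Gabra2. In K4-K27 it stood 3.16 (replicate 1) and 3.93 (replicate 2) above IgG–IgG on the log2 scale, and in K27-K4 it stood 3.47 and 4.87 above, with a mean of 3.86 ± 0.74 (SD, n = 4 libraries). Grin2a, an NMDA subunit whose share rises as neurons mature, followed with 3.17, 3.59, 3.26 and 4.87 in the same order, and Grin3a, a subunit that lowers calcium flow through NMDA receptors, with 3.50, 3.27, 3.05 and 4.76. K27-K4 replicate 2, the deepest library, was the highest of the 4 at these and at every other receptor gene but Gria1. Glrb (3.54), Grm3 (3.50), Gabra5 (3.46) and Gria2 (3.43) came next. In every library Gabra2 stood above Glrb, Grm3 and Gria2, while the order of Gabra2, Grin2a and Grin3a changed between libraries. The IgG–IgG library held 13 reads at Gabra2, and before its subtraction Grm3 stood above Gabra2 in each of the 4 reChIP libraries. Within classes, mean enrichment ran from 1.81 (Grik5) to 3.08 (Grik1) among kainate, from 1.84 (Grin3b) to 3.72 (Grin2a) among NMDA, from 2.38 (Grm4) to 3.18 (Grm7) among group III and from 2.24 (Gabrd) to 3.86 (Gabra2) among GABA-A genes. Grin1, the subunit every NMDA receptor needs, stood at 1.98, below Grin2b (3.06), the NMDA subunit of young neurons. The Grin1 region is 19500 bp long and the Grin2b region 7050 bp, and the part of length was not tested. Over the 35 genes, region length and mean reChIP enrichment had a Spearman's rho of −0.30. By percentile, which uses no IgG–IgG, Grin2a was first, at 99.9 in each of the 4 E14 reChIP libraries. Grid1, a delta receptor that organises synapses, was between 97.4 and 99.7. Gabra2 had a mean percentile of 93.4, below Grm3 (97.1), Gabra5 (96.1), Grm6 (96.1) and Grik1 (95.5).

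The lowest mean enrichments were at Gabrr2 (1.11), Gria1 (1.37), Gabbr1 (1.61) and Grik5 (1.81). Gria1 had 5 to 74 reads in these libraries and its values spread widely, at 2.26 and 1.39 for K4-K27 against 0.39 and 1.45 for K27-K4. Gabbr1 read 0.27 and 1.72 for K4-K27 and 1.58 and 2.87 for K27-K4. Gabrr2, Gria1 and Gabbr1 lay below the mean of the 4 library medians over all shared regions, and the other receptor genes above it.

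**Figure D2:**
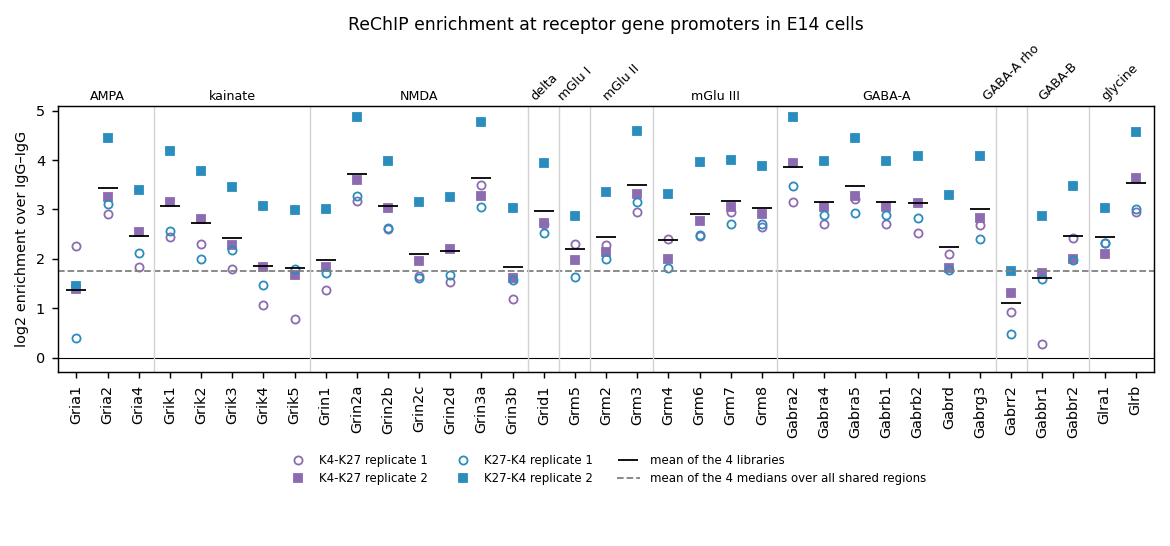
Log2 enrichment over IgG–IgG (vertical axis) at each of the 35 receptor genes with a shared region (horizontal axis, by class) in the 4 E14 reChIP libraries; black bars are their means and the dashed line is the mean of the 4 medians over all 21857 shared regions. Gabra2, at 3.16 to 4.87, is highest and Gabrr2, at 0.48 to 1.75, is lowest.

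Classes with like reChIP percentiles stood apart in total H3K4me3. In E14 cells the median percentile of the 7 GABA-A genes was 91.6 in K4-K27 and 91.0 in K27-K4, beside 31.6 in total H3K4me3. The 4 group III metabotropic genes (Grm4, Grm6, Grm7, Grm8), mostly presynaptic receptors that damp transmitter release, stood at 91.7 and 87.4 in the reChIPs, 92.5 in total H3K27me3 and 34.5 in total H3K4me3. The 7 NMDA genes had like reChIP percentiles (87.7 and 87.6) with total H3K4me3 at 58.0, and the 5 kainate genes 83.1 and 83.3 with 55.6. Without the regions that also cover another gene's start, total H3K4me3 stood at 47.8 for 4 NMDA and 48.9 for 4 kainate genes. The 3 AMPA genes had medians of 85.2 and 83.0 but were split, with Gria1 at mean percentiles of 34.0 and 0.67. Without the Gria4 region, which also covers the start of Gm46100, the AMPA medians were 61.1 and 45.3. The pair of group II genes (Grm2, Grm3) stood at 93.4 and 93.1, and the glycine pair at 82.1 and 80.4. Of the classes with a single gene, Grid1 stood at 98.5 and 98.3, Grm5, a group I receptor, at 61.9 and 43.8, and Gabrr2 at 37.7 and 13.5. The GABA-B pair was split, with a mean K4-K27 percentile of 90.4 for Gabbr2, which couples the receptor to its G protein, against 49.9 for its partner Gabbr1.

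Over the 35 genes the median K27-K4 percentile was 91.3 in WT and 88.7 in DKO, and the median K4-K27 percentile was 67.9 in WT and 56.3 in DKO. The K4-K27 library medians were 63.1 and 72.8 in the WT clones and 56.1 and 56.4 in the DKO clones, so the genotypes did not overlap. Single genes and classes departed from these medians. The GABA-B pair stood at 70.2 in E14, 82.2 in WT and 72.3 in DKO cells in K4-K27, with Gabbr1 at 49.9, 81.2 and 88.5. In K27-K4 Grm5 stood at 43.8 in E14 and 83.7 in WT cells, and Gabrr2 at 13.5 and 45.3. Group III kept 92.5, 93.1 and 93.6 in total H3K27me3 of E14, WT and DKO cells. In K4-K27 the same genes stood at 91.7 in E14, 69.9 in WT and 58.0 in DKO cells. GABA-A genes read 91.0, 92.7 and 92.7 in K27-K4. Grin2a had mean reChIP percentiles of 99.9, 98.5 and 96.8 in E14, WT and DKO cells. Gabbr1 kept a high total H3K4me3 percentile in every library, 93.2 and 85.5 in E14, 90.9 and 93.7 in WT and 97.0 and 98.7 in DKO, with total H3K27me3 between 18.3 and 32.8. Its partner Gabbr2 had the opposite balance in every library, with total H3K4me3 at 38.3 or lower and total H3K27me3 between 86.2 and 96.6. Grm5, which triggers calcium release in neurons, was low in total H3K4me3 throughout, between 4.2 and 17.0. The shared regions were called in E14 cells. The part of that choice and of batch in the lower median K4-K27 rank of the clones was not tested.

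The balance of the in-line totals in E14 cells was called at 3 receptor genes. Gabbr1 had a total H3K4me3 enrichment of 1.57 and 1.93 in replicates 1 and 2 and a total H3K27me3 enrichment of −0.90 and −1.16, a difference of 2.78 (SE 0.25). Grik5, a kainate subunit that needs another subunit to form a channel, had 1.30 and 1.62 against −0.43 and −0.76, a difference of 2.06 (SE 0.24). Grin3b, a glycine-binding NMDA subunit, had 0.61 and 0.70 against −0.42 and −0.69, a difference of 1.21 (SE 0.18). In each of these 3 genes both total H3K4me3 values lay above both total H3K27me3 values. The same held at uncalled genes, among them Grin1, Grin2c, Grin2d, Grik3, Grik4 and Glrb, and its share over all shared regions was not counted. They were the 3 of 35 called higher for H3K4me3 by limma (log2 difference over 1 and Benjamini-Hochberg adjusted p under 0.05), where 44.3% of all shared regions were called higher and 4.52% lower. The Grin3b region was 25050 bp long and also covered the starts of Cnn2 and Tmem259, and that of Grik5 held the start of Zfp574, so their totals are not those of one gene. Grin3b lost the call without replicate 2 of total H3K27me3 (limma, Benjamini-Hochberg adjusted p = 0.0501).

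No receptor gene was called lower for H3K4me3, although 15 of the 35 had an unadjusted p under 0.05 in one direction or the other, beside 65.4% of all shared regions. Gabbr2 was the most negative, with total H3K4me3 at −0.33 and −0.48 and total H3K27me3 at 0.39 and 0.47, a difference of −0.83 (SE 0.27; limma, Benjamini-Hochberg adjusted p = 0.0155), short of the threshold of 1. The median difference was −0.21 over the 35 genes and 0.73 over all shared regions. With each library centred on its median, which lowers every difference, 19 of the 35 were called lower and 2 higher (Gabbr1, Grik5), beside 27% and 31.9% of all shared regions. By class the median difference was −0.51 in group III, −0.36 in group II, −0.32 in GABA-A, −0.21 in AMPA, 0.15 in NMDA and 0.64 in kainate genes. Among the embryonic stem cell markers 5 of 6 were called higher for H3K4me3, with a median of 2.92.

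**Figure D3:**
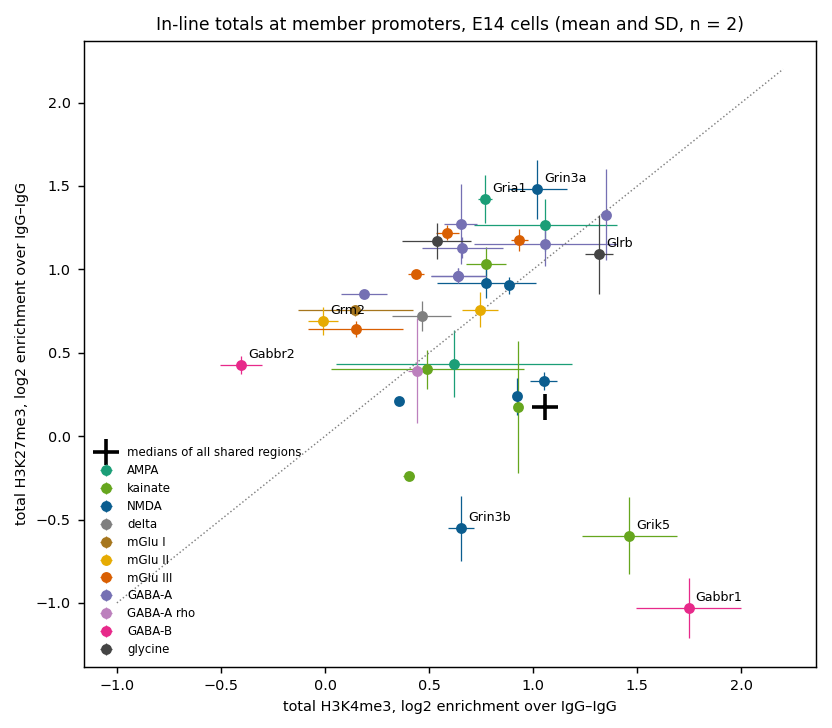
Total H3K4me3 (horizontal) against total H3K27me3 (vertical), both as log2 enrichment over IgG–IgG, at the 35 receptor genes in E14 cells; points are means and bars SDs of 2 replicates, coloured by class, the dotted line marks equal enrichment and the cross the medians of all shared regions. Gabbr1, Grik5 and Grin3b lie low on the right of the line, and 22 of the 35 genes lie above it.

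K27-K4 values lay above K4-K27 values at nearly all receptor genes in E14 cells, as they did over all shared regions. K27-K4 minus K4-K27 was above 0 at 34 of 35 receptor genes, with a median of 0.56 beside 0.70 over all shared regions, and the exception was Gria1 (−0.91), the gene with the fewest reads. limma with Benjamini-Hochberg adjustment called 0 receptor genes, 0 of them had an unadjusted p under 0.05, and 55 of the 21857 shared regions did. With the replicate number as a block, 2 were called higher, Gabbr1 (1.23; limma, Benjamini-Hochberg adjusted p = 0.0306) and Grik5 (1.16; adjusted p = 0.0421), where 6.97% of all shared regions were called. These are also the genes with the strongest lean to total H3K4me3.

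Loss of Dppa2 and Dppa4 went with lower reChIP values at Grik1 and Grin3a. Grik1, a pore-forming kainate subunit, had log2 K4-K27 values of 3.79 and 3.29 in WT clones 57 and 58 and of 2.21 and 0.47 in DKO clones 43 and 53. Both DKO values were below both WT values, and the difference of −2.20 (SE 0.59) was a 4.59-fold reduction (limma, Benjamini-Hochberg adjusted p = 0.0162). In K27-K4 the values were 3.50 and 2.62 in WT and 1.26 and 0.96 in DKO, again without overlap, a difference of −1.95 (SE 0.45) or 3.86-fold (limma, Benjamini-Hochberg adjusted p = 0.0337). Grin3a read 4.36 and 3.82 in WT against 2.56 and 1.45 in DKO in K4-K27, a difference of −2.09 (SE 0.62) or 4.25-fold (limma, Benjamini-Hochberg adjusted p = 0.0394). In K27-K4 it read 3.99 and 3.04 against 1.91 and 1.86, a difference of −1.62 (SE 0.49) that was not called (limma, Benjamini-Hochberg adjusted p = 0.146). DKO clone 53 was the lower DKO clone in each of these 4 sets of values.

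Thus 2 of 34 receptor genes tested were called lower in K4-K27, where 1.96% of all regions were, and 1 of 35 in K27-K4, where 1.44% were; 0 were called higher, beside 0.0928% and 0% of all regions. A further 5 genes had an unadjusted p under 0.05 in K4-K27, all with lower values in DKO. The 7 of 34 with such a p stand beside 12.7% of all regions on the lower and 9.24% on the higher side. Grin2c, an NMDA subunit of the cerebellum, read 3.13 and 3.04 in WT and 1.78 and 1.46 in DKO (limma, Benjamini-Hochberg adjusted p = 0.123). Gria2 read 2.61 and 2.39 against 1.13 and 0.94, and Gabra5, an alpha subunit of extrasynaptic GABA-A receptors, 4.65 and 4.19 against 3.32 and 2.83. The genotypes did not overlap at these genes, nor at Grin3b and Grm3, the others of the 5. For genes picked by p this is close to given, and 23.2% of all regions had both DKO values below both WT values. At the wider shared E14 regions, Grin2c (−0.37) and Grin3b (−0.50) differed by less and the genotypes overlapped. Of the 7 genes highest in E14 cells, Grin3a was called and Gria2, Gabra5 and Grm3 are among those just described, while the genotypes overlapped at the 3 others, Grin2a, Gabra2 and Glrb. Grin2a stood at 4.38 and 3.76 in WT against 4.04 and 3.30 in DKO and Gabra2 at 3.73 and 3.00 against 3.05 and 2.11. Where a clone was left out, the lone clone of that genotype was assumed to vary like the other genotype. Grik1 then lost its K27-K4 call without DKO clone 43 (−2.10; limma, Benjamini-Hochberg adjusted p = 0.274) or 53 (−1.80; adjusted p = 0.442), and its K4-K27 call without DKO clone 53 (adjusted p = 0.538) or WT clone 57 (adjusted p = 0.0994). Its K4-K27 difference ran from −3.07 without DKO clone 43 to −1.33 without DKO clone 53, a size that depended on the DKO clone kept. Grin3a lost its K4-K27 call without any one of the 4 clones (limma, Benjamini-Hochberg adjusted p from 0.0781 to 0.468), while its difference stayed between −2.64 and −1.53. The K27-K4 call of Grik1 was also lost with centring, with all 4 ChIPs in one fit and without trend and robust fitting (limma, Benjamini-Hochberg adjusted p = 0.0746, 0.0695 and 0.126), and both K4-K27 calls were lost without trend and robust fitting and with regions in both tables (adjusted p from 0.0951 to 0.266).

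Tested at the shared E14 regions, an alternative chosen after the data were seen, Grik1 and Grin3a were lower in both reChIPs. Gria2 (−1.27; limma, Benjamini-Hochberg adjusted p = 0.0364) and Gabrr2 (−1.52; adjusted p = 0.0351) were lower as well in K27-K4, so that 4 of 35 were called where 8.29% of all shared regions were, and 2 of 35 in K4-K27 where 4.35% were. None of the 35 was called in total H3K4me3, where 5.55% were called lower, or in total H3K27me3, where 2.33% were. Gria2 read 2.82 and 2.03 in WT and 1.29 and 1.00 in DKO. Gabrr2 read 0.25 and 0.33 in WT and −0.73 and −1.72 in DKO, from 14 to 58 reads, and in K4-K27 it had 25 and 28 reads in WT and 2 in each DKO clone, too few for a fold (limma, Benjamini-Hochberg adjusted p = 0.213). Its region lies 1389 bp from the start site.

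Across the receptor genes the reChIP differences leaned to lower values in DKO. In K4-K27 30 of 34 were below 0 with a median of −0.55, beside 50.3% of all regions and a median of −0.01. In K27-K4 29 of 35 were, with a median of −0.54, beside 56.8% and −0.19. Where WT and DKO regions overlapped, the WT region was the one tested, and its part in this lean was not tested. At the shared E14 regions, 58.8% of all regions were below 0 in K4-K27. So were the 35 genes there apart from Gria1, Gria4, Grin1, Grin2d, Grm5, Gabrb2, Gabbr1 and Glra1. With 1 clone left out, the sign changed at 12 of 34 genes in K4-K27 and 10 of 35 in K27-K4, none of them called. Both DKO values lay below both WT values at 14 of 34 genes in K4-K27, against 23.2% of all regions, and at 18 of 35 in K27-K4, against 33.9%. Both lay above at 0 of 34 genes in K4-K27, against 23.7% of all regions, and at 1 of 35, Grik5 (0.22), in K27-K4, against 22.7%. All 7 NMDA, 5 kainate and 4 group III genes had K4-K27 differences below 0, with medians of −0.40, −0.47 and −0.66, although at the shared E14 regions Grin1 (0.22) and Grin2d (0.07) were above 0. Gria4, an AMPA subunit, had the highest difference in both reChIPs, 0.40 in K4-K27 (WT 3.37 and 2.81, DKO 3.97 and 3.01) and 0.41 in K27-K4 (WT 2.56 and 1.92, DKO 2.89 and 2.41), with the genotypes overlapping in both. The most negative K27-K4 value was that of Gabrr1, −2.12 (SE 1.14; limma, Benjamini-Hochberg adjusted p = 0.295), at a region with 3 to 34 reads.

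**Figure D4:**
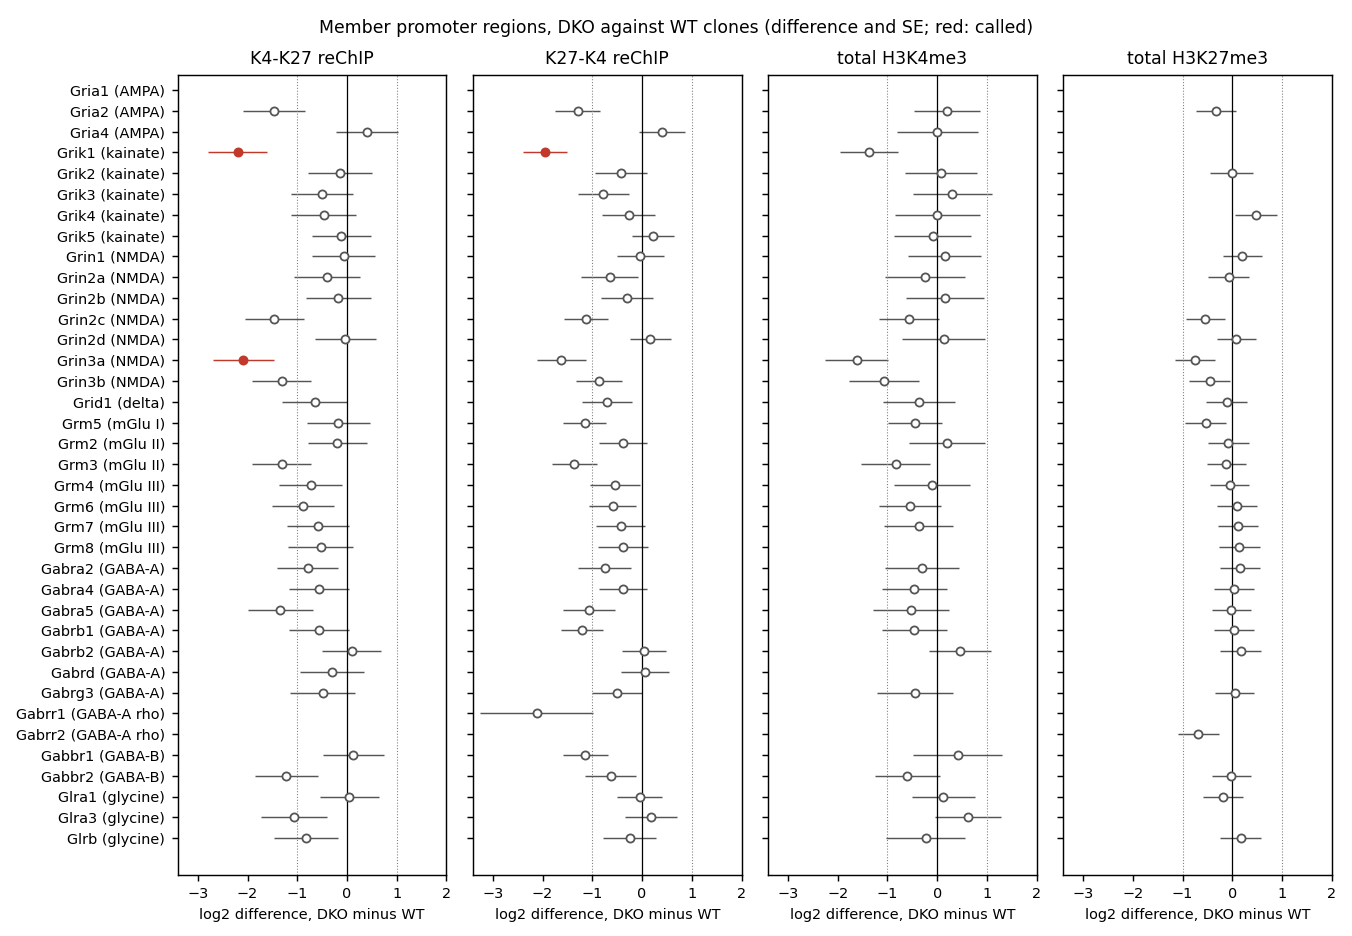
DKO minus WT difference in log2 value (horizontal axes) with its limma SE at each receptor gene (rows, by class) in the 4 ChIPs; red points passed the test and dotted lines mark differences of −1 and 1. Grik1 and Grin3a are called in K4-K27 and Grik1 in K27-K4, while no gene is called in either total.

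In the in-line totals 0 receptor genes were called. For total H3K4me3, 32 were tested, 2 had an unadjusted p under 0.05 beside 15.4% of all regions, and 4.05% of all regions were called lower and 0.52% higher. Those 2 were again Grin3a (WT 2.69 and 1.63, DKO 0.35 and 0.72), at −1.62 (SE 0.64; limma, Benjamini-Hochberg adjusted p = 0.135), and Grik1 (WT 2.45 and 0.97, DKO 0.32 and 0.37), at −1.37 (SE 0.58; adjusted p = 0.187). WT clone 58 lay nearer to the DKO clones than WT clone 57 at both genes, and without it 7 were called lower, both of these included and Gabra4 and Gabrb1 from 1 region, where 11.1% of all regions were. With libraries centred on their median, Grik1 (−1.33), Grin3a (−1.59) and Grin3b (−1.03) were called lower, where 6.72% of all regions were, and with 5 kb either side of the start sites Gria2 (−2.60) was. The genotypes did not overlap at 4 of 32 genes, all lower in DKO, against 16.6% of all regions below and 22% above. Glra3, a glycine receptor subunit, had the highest total H3K4me3 difference, 0.63 (SE 0.67; limma, Benjamini-Hochberg adjusted p = 0.873), with 1.92 and 0.45 in WT and 1.88 and 1.74 in DKO, which overlap.

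For total H3K27me3, 27 genes were tested, 0 had an unadjusted p under 0.05 beside 16% of all regions, and 0.399% of all regions were called lower and 0.0163% higher. The differences ran from −0.74 at Grin3a (WT 1.77 and 1.08, DKO 0.58 and 0.78) to 0.47 at Grik4 (WT 1.33 and 0.26, DKO 1.11 and 1.42), a kainate subunit of the high-affinity type. Grin3a did not overlap between genotypes and Grik4 did. Grid1, among the highest of all shared regions in total H3K27me3, read 2.23 and 1.46 in WT and 1.79 and 1.67 in DKO, with overlap. Both DKO values were below both WT values at 5 of 27 genes, against 20.3% of all regions, and above them at 1, Grin1 (0.20), against 29%. Grik1 had no WT or DKO region of total H3K27me3 and was not among the 27. At the shared E14 regions its total H3K27me3 read 1.49 and 0.74 in WT and 0.45 and −0.05 in DKO, without overlap (−0.92, SE 0.35; limma, Benjamini-Hochberg adjusted p = 0.166). It was 1 of 4 of the 35 genes with an unadjusted p under 0.05 there, with Gabrr2 (−0.89), Gria1 (−0.75) and Grik3 (−0.69), beside 11.4% of all shared regions. limma-voom on the recovered reads called 0 receptor genes in either total.

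The knockout differences at the receptor genes were not shown to depend on the order of the antibodies. The interaction was called at 0 of 34 genes and at 0 of all 15852 regions by limma with Benjamini-Hochberg adjustment, with 0 genes at an unadjusted p under 0.05, and 377 regions above 0 and 459 below at that level. The largest interaction values were 1.37 (SE 0.94) at Glra3 and −1.02 (SE 0.69) at Grm5. Both orders were read at the K4-K27 region for the interaction, while the values below are those at the region of each order. Glra3 read 2.18 and 1.72 in WT and 0.44 and 1.32 in DKO in K4-K27, without overlap, and 1.21 and 0.06 against 1.00 and 0.64 in K27-K4, with overlap. Gabbr1 had 2.97 and 2.79 in WT and 3.37 and 2.65 in DKO in K4-K27, with overlap, and 1.60 and 1.32 against 0.04 and 0.59 in K27-K4, without overlap (−1.15, SE 0.45; limma, Benjamini-Hochberg adjusted p = 0.209).

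Other genes of the same synapses were taken from fixed lists. Of 13 further receptor genes, 8 had a region in the E14 K4-K27 table (58.7% of all genes) and 2 in that of total H3K27me3 (12.1%). In K27-K4 10 of the 13 were listed in both WT and DKO cells, beside 33.7% and 32.1% of all genes, and in total H3K27me3 5 in WT and 6 in DKO cells, beside 15.8% and 17.6%. Of these genes 0 were called in any DKO comparison, among 8 tested in K4-K27 and 10 in K27-K4. Of 47 genes for transmitter synthesis, transport and synaptic scaffolds, 46 had a region in the E14 K4-K27 table. Of these genes 4 of 44 tested were called lower in DKO in K4-K27 (1.96% of all regions), 3 of 43 in K27-K4 (1.44%), 6 of 42 in total H3K4me3 (4.05%) and 1 of 27 in total H3K27me3 (0.399%), with 0 higher. Slc6a11, a GABA transporter, was lower in all 4 ChIPs, with K4-K27 values of 3.14 and 2.76 in WT and 0.19 and −1.28 in DKO (−3.50, SE 0.72; limma, Benjamini-Hochberg adjusted p = 0.000294). Nlgn1, which encodes a postsynaptic adhesion protein, was lower in both reChIPs and total H3K4me3. It read 3.83 and 2.94 in WT against −0.01 and 0.26 in DKO in K27-K4 (−3.26, SE 0.43; limma, Benjamini-Hochberg adjusted p = 0.000559). Slc6a5, the neuronal glycine transporter, was lower in K4-K27 (−2.77) and total H3K4me3 (−2.14), and the scaffold genes Shank2 (−2.77) and Grip2 (−2.00) in total H3K4me3. At the targeted genes, total H3K4me3 differed by 0.37 at Dppa2 and 0.08 at Dppa4 and was not called; promoter chromatin does not check the deletions.

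Receptor genes without a shared region were among those with the least CpG. Within 1.5 kb either side of the start site, the 39 genes had a median of 3.00 CpG per 100 bp, against 2.37 for all genes, and a median GC content of 52.7% against 49.2%. The 4 genes without a shared region held 0.60 (Gabra6), 1.27 (Gabrr1), 1.30 (Glra3) and 1.37 (Gabrg1), while the 35 others ran from 1.33 (Grm5, Gabrr2) to 8.50 (Grm4). Among those 35 the content had little relation to E14 reChIP enrichment (Spearman's rho 0.12 across genes, which share libraries and differ in region length and are not replicates). Grin2a, first by percentile, held 4.13 CpG per 100 bp, Grik3 held 8.06, and Grik1 and Grin3a, the genes called in the DKO comparison, held 2.97 and 4.73.

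**Figure D5:**
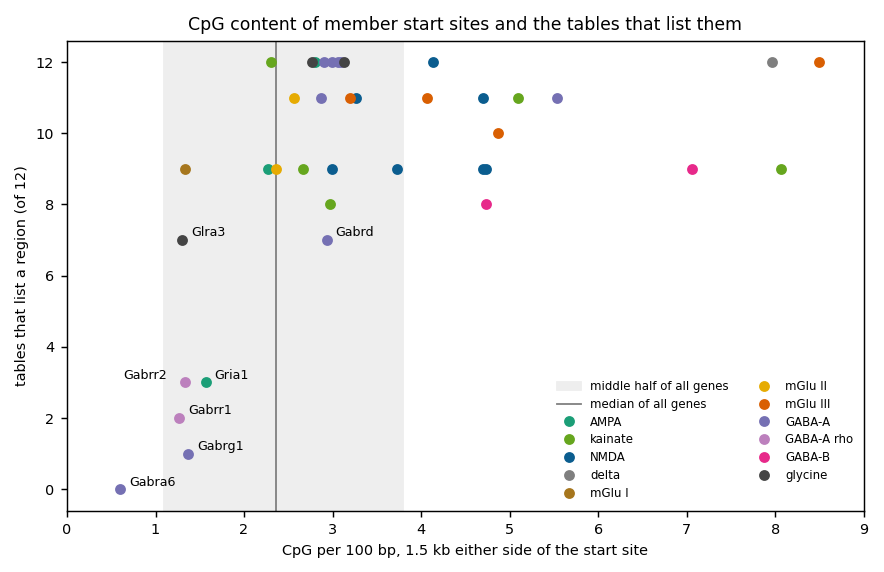
CpG per 100 bp within 1.5 kb either side of the start site (horizontal) against the number of the 12 tables that list a region (vertical) for each of the 39 receptor genes, coloured by class; the grey band is the middle part of all genes between their quartiles and the line their median of 2.37. Gabra6, with 0.60, is in 0 tables, and the genes in 8 or more tables include Grm5 at 1.33 and Grm4 at 8.50.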

How the data were processed

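Per the labels and the study's methods, the authors trimmed reads (Trim Galore 0.6.6), aligned them to mm10, GRCm38.p6 (BWA 0.7.13), marked but kept duplicates (SAMtools 1.9, Picard 2.6.0), and deposited 12 region tables of log2 read numbers corrected for library size and kb of region, counting reads with mapping quality over 20 and 0 reads entered as 0.9. The study's methods call peaks per replicate with EPIC2 against IgG–IgG. In E14 cells 24540 K4-K27 and 36235 K27-K4 regions were read here, more than the peaks the study reports. The regions here, shared ones included, are therefore not the study's final peak sets. How they were called is not given in the sources used here. The H3K4me3 antibody is reported to bind H3K4me2 too. 240 columns were used and 32 columns of another series were not. Of values under 500 reads, 100% came out as whole reads within 0.01 read.

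The receptor genes and the other gene lists were chosen with earlier results of these data known. All receptor genes could be named: with values in every library for the highest and lowest in reChIP enrichment, those called in a test, and the largest and smallest DKO minus WT difference per ChIP. Of the other lists, only called genes were named, and 1 called gene is not reported here. limma 3.58.1 (R 4.3.3; trend, robust) was fitted over all regions of each comparison and checked on simulated data, in place of the count test foreseen, because the tables hold log2 values. A region in the WT or DKO table entered the DKO comparison of that ChIP, and where a WT and a DKO region overlapped the WT region was used. A call needed a log2 difference over 1 and a Benjamini-Hochberg adjusted p under 0.05. With 2 samples a group, p-values measure the spread between these passages or clones. E14 replicate numbers mark one passage and clone numbers one culture, so numbers pair libraries. Same-numbered deviations correlated at 0.19 (E14 reChIPs), −0.12 (E14 totals), 0.10 (WT) and 0.09 (DKO). Alternatives were scaling, variance model, limma-voom on recovered reads, region set, window, low values, block and leaving out each library. Promoter sequences are from RefSeq.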

Additional observations from a re-analysis of the deposited data

Results flagged for a closer look

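In E14 and WT cells 8 contrasts between ChIPs at receptor genes took opposite signs in every sample. The difference was not tested in any of them, and cell line and batch cannot be told apart. For K27-K4 minus K4-K27, both E14 replicates were above 0 and both WT clones below 0 at Gabbr1 (1.31 and 1.15 against −1.58 and −1.56; E14 minus WT 2.80), Grik5 (1.01 and 1.31 against −1.35 and −0.92; 2.29) and Grin3b (0.38 and 1.43 against −0.56 and −0.59; 1.48). The same held at Grik4 (E14 minus WT 1.08), Grin2d (0.92), Gria4 (0.89) and Glrb (0.85). These are 7 of 35 receptor genes, beside 46% of all shared regions. Both DKO clones were below 0 as well at 5 of these 7, Gabbr1 (−2.91 and −1.89), Grik5 (−1.05 and −0.42), Grin3b (−0.94 and −0.30), Gria4 (−0.45 and −0.18) and Grin2d (−0.54 and −0.02), and the DKO clones differed in sign at Glrb and Grik4. For total H3K4me3 minus total H3K27me3 the one such gene was Grin2c, with 0.16 and 0.14 in E14 against −0.11 and −0.58 in WT (E14 minus WT 0.49), beside 3.57% of all shared regions, and its region of 35100 bp also covered the start of Fdxr.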

How the results depend on the processing

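Counts of receptor genes called lower in DKO moved with the processing. In K27-K4 (1 gene) there were 4 at the shared E14 regions, a region set chosen after seeing the data, 3 with limma-voom on recovered reads, and 0 with all 4 ChIPs in one fit, with libraries centred on their median or without trend and robust fitting, and leaving out 1 clone gave 0 to 11, the highest without WT clone 58. In K4-K27 (2 genes) there were 4 with all 4 ChIPs in one fit, 3 with 5 kb either side (adding Gabrr2, at few reads) and 0 without trend and robust fitting or with regions in both tables, and 0 to 1 with 1 clone left out. In total H3K4me3 (0 genes) there were 3 with centring (Grik1, Grin3a, Grin3b), 1 with 5 kb either side (Gria2), and 0 to 7 with 1 clone left out, again highest without WT clone 58. In the E14 totals centring gave 19 called lower against 0. With the replicate block as the pairing, 2 genes were called in the E14 orientation against 0 and 1523 regions against 0, and the block changed no other count of receptor genes. A window of 1 kb upstream to 100 bp downstream put the receptor genes 0.70 above all shared regions in E14 total H3K27me3 against 0.68. With 1 clone left out, uncalled differences changed sign at 12 of 34 genes in K4-K27, 10 of 35 in K27-K4, 27 of 32 in total H3K4me3 and 21 of 27 in total H3K27me3, among them the highest difference in K4-K27 (Gria4, −0.078 to 0.88), total H3K27me3 (Grik4, −0.060 to 1.01) and total H3K4me3 (Glra3, −0.11 to 1.36). The cause was not tested. Over all regions, calls lower in DKO ranged from 32 to 4311 in K4-K27 (741), 201 to 2072 in K27-K4 (671), 1 to 4797 in total H3K4me3 (1746) and 0 to 510 in total H3K27me3 (172), and limma-voom called 680, 1593, 1899 and 407. Calls lower in the E14 totals rose from 989 to 5897 with centring. Depth limits Gria1, Gabrr1 and Gabrr2, which had 5 or fewer reads in at least 1 library.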
